A study of Mus musculus with 13 samples.

Results

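The cells described here were selected by a gate on Foxp3, the transcription factor that defines regulatory T cells (Tregs), in mouse thymus and in the other samples of the same kit. A cell entered the gate with 500 to 25000 unique molecular identifiers (UMIs), at least 1 Foxp3 UMI, at least 2 UMIs in all of Il2ra, Ctla4, Ikzf2 and Ikzf4, and at most 1 UMI in all of the B cell genes Bank1, Ebf1 and Pax5. It held 1021 of the 143848 cells in that UMI range, 310 from 8 thymic lobes and 711 from 16 other samples. They are called Foxp3-gated cells below, because in the thymic lobes most of them also held UMIs of immature thymocyte genes. Each set was compared with the T cells of the same samples that had no Foxp3 UMI and at least 5 UMIs in all of the T cell genes Themis, Skap1, Bcl11b, Cd247 and Cd3e, called Foxp3-zero T cells. These numbered 56242 in the thymic lobes and 20406 in the other samples.

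The study was set up to compare single-cell platforms on thymocytes. Cells were fixed and given their barcodes by split-pool ligation in plates (Parse Biosciences), with a WT kit of 9 sublibraries and a Mini kit of 2. The thymic cells of the WT kit came from 4 lobes, the 2 lobes of each of 2 control female C57BL/6N mice aged 2 months, digested with collagenase and dispase. The Mini kit held control thymocytes of 2 other young female C57BL/6N mice, each split into 2 technical replicates (called lobes 1-A, 1-B, 2-A and 2-B here). The tables do not tie the samples of either kit to the mice, so the 8 thymic samples, which share 4 animals, entered the tests as separate samples and the p-values below may be too small. The other 16 samples of the WT kit carry the names CVS_C_1 to 5, CVS_S_1 to 6 and YD_C_1 to 5, and the labels say only for the kit as a whole that it held thymus and spleen, young and adult mice, and control and chronic stress treatment. They were therefore not grouped, although the text of the study counts them as non-thymic, and their values are given as a range and a median.

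Tregs hold other T cells in check. Foxp3 acts with partners such as Runx1, the NFAT factors and the Ikaros family proteins Ikzf2 (Helios) and Ikzf4 (Eos). They carry the high-affinity interleukin-2 (IL-2) receptor, whose alpha chain Il2ra (CD25) raises the affinity for IL-2 while the beta chain Il2rb and the common gamma chain signal through Jak1 and Jak3 to STAT5, and the inhibitory receptor Ctla4. In the thymus, Tregs arise mainly among CD4 single-positive thymocytes in the medulla, after the double-positive CD4+ CD8+ stage at which Rag1, Rag2 and Dntt rearrange the T cell receptor genes.

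Total UMIs per lobe ranged from 28057164 to 124106974 in the thymic lobes and from 5405078 to 91172408 in the other samples. No cell barcode occurred more than once within a kit, and 29 Foxp3-gated cells carried a barcode combination that the other kit also used. WT lobe 1 stood apart from the other lobes with 5.31% B cells (at least 5 UMIs of Bank1, Ebf1 and Pax5), where the median lobe had 0.747%. It held only 19 of the gated cells, 52.6% of them with a UMI of Rag1, Rag2 or Dntt, the lowest share of the 8 lobes.

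The gated cells made up 0.475% to 0.609% of the T cells (gated plus Foxp3-zero) in the 8 thymic lobes, with a median of 0.544%. The 16 other samples lay higher, between 1.58% and 5.73% (median 3.5%). Their lowest sample, CVS_C_1, with 8 gated cells, had an exact 95% binomial interval of 0.686% to 3.10%, and the highest, CVS_C_3, with 38, had one of 4.09% to 7.78%. The intervals of the 8 lobes lay between 0.305% and 0.850%. Cells with at least 1000 UMIs outside ribosomal RNA, 49166 thymic and 68356 other, were also thinned to 1000. The gate and the T cell rule were then applied again. The share was 0.0748% to 0.241% in the lobes and 1.74% to 7.66% in the other samples. Its denominator moved too, as Foxp3-zero T cells fell from 56242 to 45981 in the lobes and from 20406 to 10180 elsewhere. As a median percent of all cells kept, gated cells went from 0.524% to 0.105% in the lobes. In the other samples they went from 0.647% to 0.416%. The gate fixes these shares, so they are a description of where the cells were found. Intervals on shares of cells cover counting error only.

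**Figure D1:**
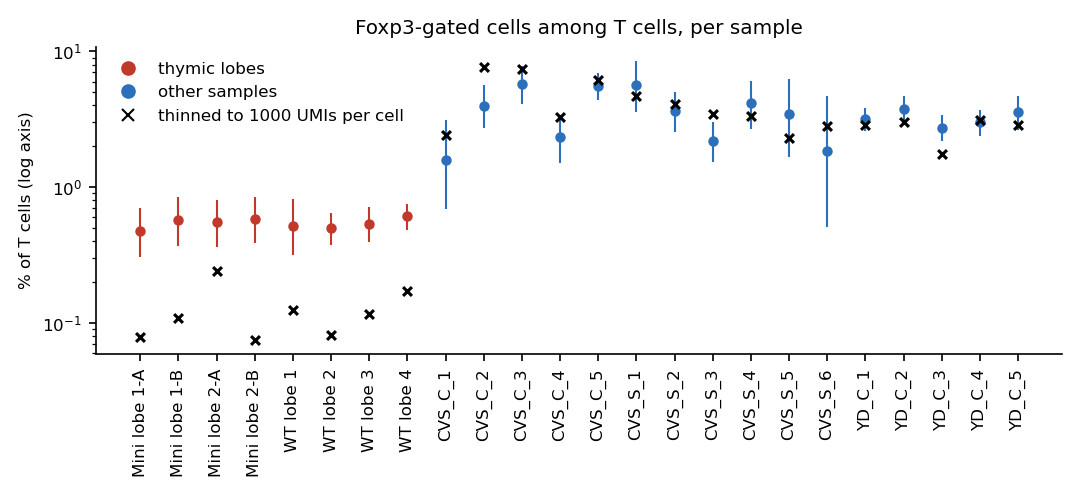
Percent of T cells that were Foxp3-gated (log axis) in each of the 8 thymic lobes (red) and the 16 other samples (blue), with exact 95% binomial intervals. Crosses give the share after thinning the cells deep enough to 1000 UMIs and applying the gate and the T cell rule again. It falls to a median of 0.112% in the lobes and is at a median of 3.2% in the other samples, where the Foxp3-zero T cells also became fewer.

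Of the thymic gated cells 70.0% had a single Foxp3 UMI, 14.2% had 2 and 15.8% had 3 or more. For the 711 others these shares were 49.1%, 24.5% and 26.4%. Foxp3 reached 166 to 295 CPM (UMI counts of summed cells scaled to the same total in every sample) in the gated cells of a lobe (median 214), and 464 to 900 (median 725) in the 13 other samples with at least 20 gated cells. The gate requires a Foxp3 UMI, which weighs more in CPM in shallower cells, and the other samples' gated cells were shallower (median 3185 UMIs, beside 8284 in the lobes), so these levels are not compared. The requirement for 2 UMIs of the partner genes was met by 35.6% of the Foxp3-zero T cells in the lobes and by 13.9% in the other samples, so it was the weaker filter in the thymus. Just outside the gate were 24 thymic cells with a partner sum of 1, and just inside were 15 with a sum of 2. Outside the lobes these numbers were 77 and 62. On the B cell side, 17 thymic cells and 71 others were kept out by 1 UMI.

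Ikzf2 supplied most of the partner UMIs. It gave 61.4% of them in the thymic gated cells and 62.5% in the others, Ctla4 gave 20.3% and 11.5%, Il2ra 16% and 23.7%, and Ikzf4 2.29% and 2.36%. In CPM per sample, Il2ra ran from 123 to 741 (median 359) in thymic gated cells and from 51.0 to 78.9 in thymic Foxp3-zero T cells. Ctla4 ran from 307 to 526 (median 442) against 58.8 to 84.6. Ikzf2 ran from 997 to 1697 (median 1362) against 467 to 604, and Ikzf4, the least abundant in UMIs, from 28.8 to 99.8 against 5.92 to 7.77. None of these ranges overlapped, as a gate on the same genes is bound to give to some extent, so no test was made on them. The gated medians of the 13 counted other samples were 714 for Il2ra, 444 for Ctla4, 2308 for Ikzf2 and 84.9 for Ikzf4.

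The markers of developmental stage, which the gate did not use, set the thymic cells apart from the Treg label. Of the 310 thymic gated cells, 80.3% had a UMI of Rag1, Rag2 or Dntt (exact 95% interval 75.5% to 84.6%), 75.5% had Cd8a or Cd8b1, and 68.7% had Cd4 together with a Cd8 gene. In the 711 gated cells of the other samples these shares were 2.95%, 4.78% and 2.39%. Their Cd4 share was 44.2%, beside 79.0% in the thymic cells. Thymic B cells, with a median of 3693 UMIs where the gated cells had 8284, had shares of 48.2% for Rag1, Rag2 or Dntt and 44.8% for Cd8a or Cd8b1, and shares at equal depth follow below. Only 48 of the thymic cells (15.5%) had no UMI of Rag1, Rag2, Dntt, Cd8a or Cd8b1, as 657 of the 711 others did.

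Depth moved with the gate in the thymus. The median gated cell held 8284 UMIs where the median Foxp3-zero T cell held 3173, and 32.6% of the gated cells were over 12500 UMIs, beside 9.89% of the Foxp3-zero T cells. Outside the lobes the medians were 3185 and 3397. Among thymic T cells within the B cell limit, 0.0561% of those under 2000 UMIs passed the gate, 0.334% of those from 2000 to under 4000, 0.677% of those from 4000 to under 8000 and 1.55% of those at 8000 or more. The same shares in the other samples were 2.13%, 4.85%, 6.57% and 8.87%. The share of cells with any Foxp3 UMI was 0.694% in thymic cells that met the T cell rule and 0.769% in thymic B cells (5 of 650, exact 95% interval 0.25% to 1.79%), which should lack Foxp3 and whose median depth was 3693 UMIs. After thinning, these shares were 0.223% and 0.202%, the latter from 1 of 496 B cells (0.00510% to 1.12%). A difference between these T cells and B cells was thus not detectable with so few B cells. Foxp3 together with the partner minimum was met by 1 of the 650 B cells (0.154%). Outside the lobes a Foxp3 UMI was seen in 5.82% of T cells and 1.09% of B cells, and in 2.95% and 0.354% after thinning. No doublet caller was run, and the part of doublets and of free RNA in the thymic gated cells was not tested.

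**Figure D2:**
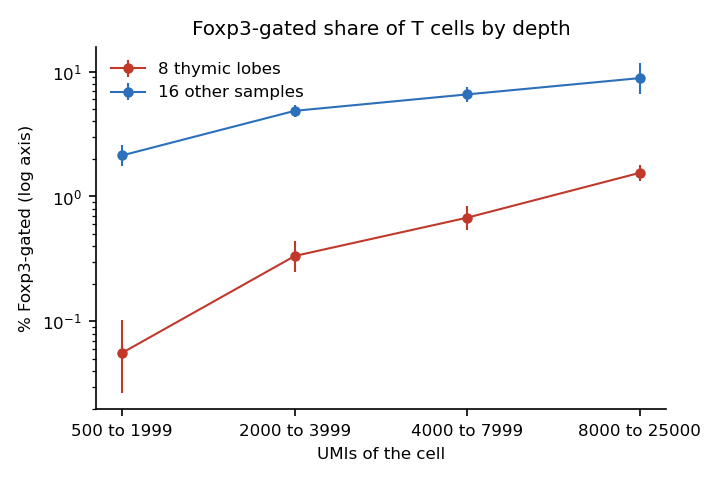
Percent of T cells within the B cell limit that passed the Foxp3 gate (log axis), by the UMIs of the cell, in the 8 thymic lobes (red) and the 16 other samples (blue), with exact 95% binomial intervals. The thymic share climbs from 0.0561% to 1.55% over the depth range, the other from 2.13% to 8.87%.

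Thinning each cell to 1000 UMIs removed the difference in depth from the marker shares. At that depth 57.4% of the thymic gated cells had a UMI of Rag1, Rag2 or Dntt, beside 69.7% of the Foxp3-zero T cells and 41.3% of the thymic B cells. For Cd8a or Cd8b1 the shares were 39.9%, 54.3% and 27.8%, and for Cd4 32.9%, 44.1% and 20.4%. The gated cells thus lay between the Foxp3-zero T cells and the B cells in these shares. Ccr7, the receptor that draws cells to the medulla, went the other way, with 19.1% of the gated cells, 5.61% of the Foxp3-zero T cells and 7.66% of the B cells. Thinning left out 12 of the 310 gated cells and 8199 of the Foxp3-zero T cells as too shallow. Whether the UMIs of these genes in B cells came from free RNA or from doublets was not tested. The cells were pooled over lobes, and WT lobe 1, with 5.31% B cells and 19 gated cells, weighs more among the B cells.

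The thymic cells also differed by their Foxp3 count, a description only, since Foxp3, Ctla4 and Il2ra chose them. After thinning, Ctla4 was seen in 24.3% of those with 1 Foxp3 UMI, 44.2% of those with 2 and 65.3% of those with 3 or more. Il2ra went from 16% to 30.2% and 38.8%, and Ccr7 from 16.5% to 20.9% and 28.6%. Ikzf2 stayed between 61.2% and 67.3%. A UMI of Rag1, Rag2 or Dntt was still seen in 59.7%, 53.5% and 51.0%, and their exact intervals overlapped. For Cd8a or Cd8b1 the shares were 42.2%, 30.2% and 38.8%, without an order. In the other samples Ctla4 did not rise with the Foxp3 count, with 31.8%, 20.7% and 31.7%, while Il2ra rose from 37.4% to 48.2% and 52.7%.

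**Figure D3:**
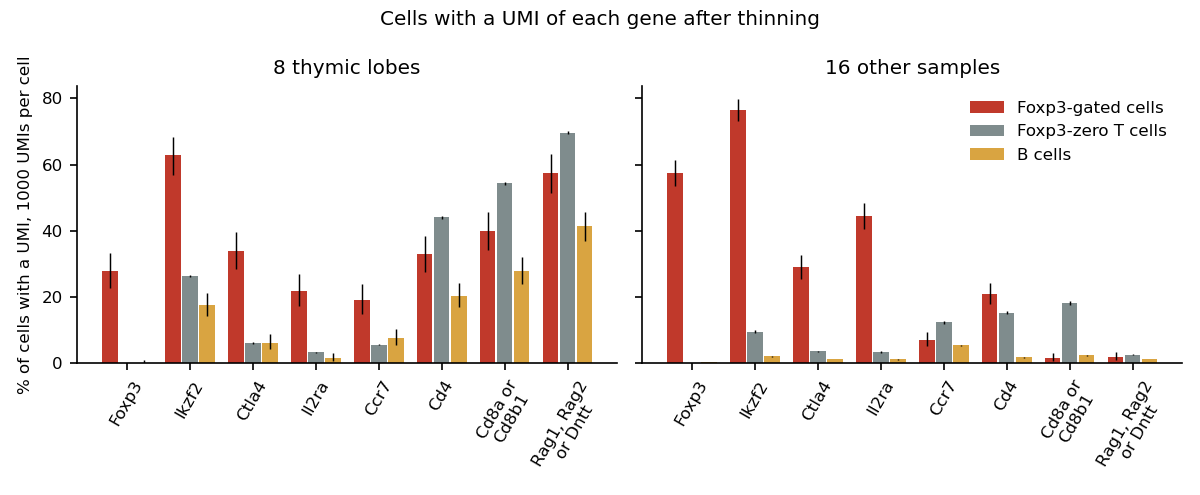
Percent of cells with a UMI of each gene after thinning to 1000 UMIs, for Foxp3-gated cells (red), Foxp3-zero T cells (grey) and B cells (yellow) in the 8 thymic lobes (left) and the 16 other samples (right), with exact 95% binomial intervals. Rag1, Rag2 or Dntt is at 57.4% in thymic gated cells and at 1.99% in those of the other samples.

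What else the thymic gated cells expressed was tested on UMI counts summed per lobe and cell class, with the lobe as a block (edgeR quasi-likelihood test, Benjamini-Hochberg over 12666 genes, the 13 gate genes left out). At an adjusted p below 0.05, 898 genes differed (7.09%), 492 higher (3.88% of those tested) and 406 lower (3.21%). With DESeq2 size factors in place of TMM the split was 602 higher and 214 lower, so the number of lower genes in particular depends on the scaling. The median log2 fold change over all genes was -0.07 with TMM and 0.00 with the size factors.

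Of all genes tested, 316 were higher in every lobe (2.49%) and 297 were lower in every lobe (2.34%), whether or not they were called. Among the called genes with the same sign in all 8 lobes, Lrrc32 had the largest rise, and Itgb8 the fifth. Lrrc32 (GARP, chr7:98489283-98502181, GRCm38), which holds latent TGF-beta on the cell surface, was at 72.3, 7.21, 14.3 and 23.8 CPM in the gated cells of WT lobes 1 to 4 and at 31.5, 36.5, 57.6 and 41.6 in Mini lobes 1-A, 1-B, 2-A and 2-B. The Foxp3-zero T cells of the 8 lobes lay between 0.53 and 1.49. The ranges did not overlap, and the log2 fold change was 4.95 (SE 0.34, edgeR adjusted p = 3.93e-36). Itgb8 (chr12:119158022-119238802), the integrin chain that releases active TGF-beta, was at 72.3, 52.8, 45.9 and 47.5 CPM in the WT lobes and at 84.1, 63.9, 126 and 87.3 in the Mini lobes, against 2.17 to 4.35 in Foxp3-zero T cells. All 8 lobes were higher, with a log2 fold change of 4.33 (SE 0.25, edgeR adjusted p = 2.63e-46). Both genes rest on few UMIs, 70 for Lrrc32 and 155 for Itgb8 over all gated cells.

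Of the 22 listed Treg surface molecules 21 were tested, 17 of them rose and none fell, with a median log2 fold change of 1.24. Background for the list is the 3.88% of all genes that rose. Nt5e (CD73, chr9:88327197-88372092), which makes adenosine from AMP, ran from 18.3 to 169 CPM (median 43.1) against 5.04 to 7.94, with the highest value in WT lobe 1. Its log2 fold change was 2.98 (SE 0.24, edgeR adjusted p = 3.79e-28). The co-stimulatory receptor Tnfrsf4 (OX40, chr4:156013843-156016612) ran from 26.2 to 72.3 CPM (median 47.5) against 6.53 to 8.99, a log2 fold change of 2.68 (SE 0.23). Its neighbour Tnfrsf18 (GITR) ran from 20.1 to 62.8 against 4.75 to 8.60, with 2.09 (SE 0.27). Gpr83, an orphan receptor enriched in Tregs, ran from 8.60 to 133 against 1.69 to 4.12, with 3.11 (SE 0.33). These ranges did not overlap either. Beside these 4 and Lrrc32 and Itgb8, the other 11 that rose had log2 fold changes between 0.22 (Cd5) and 1.97 (Tigit). Because the gated cells were deeper, the list was also set against Foxp3-zero T cells drawn to the UMI distribution of the gated cells. There 4.71% of all genes rose and 1.82% fell, and 16 of 19 listed genes that could be tested rose, with a median of 1.31.

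**Figure D4:**
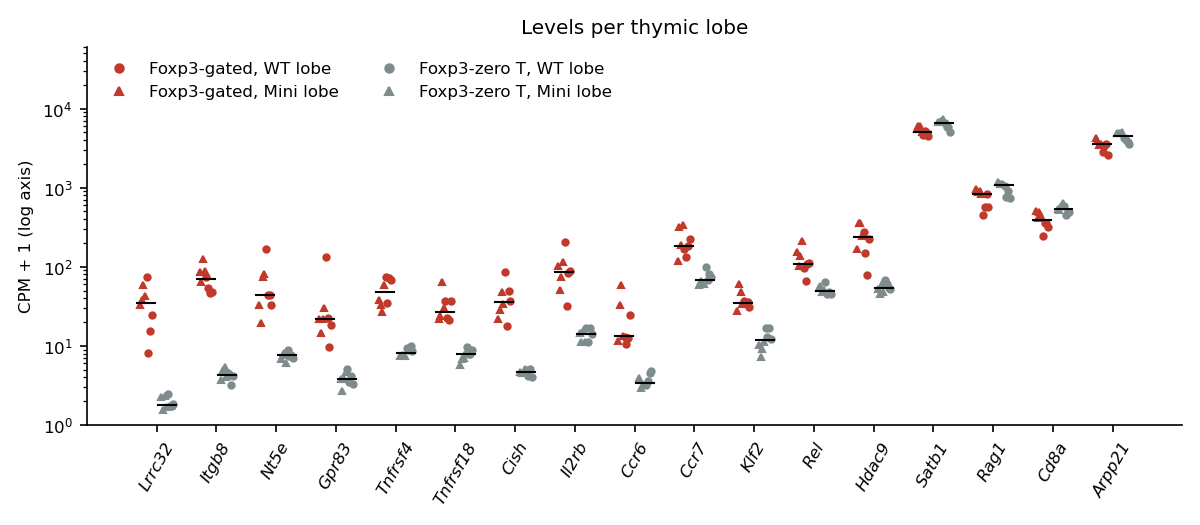
CPM plus 1 (log axis) of 17 genes in Foxp3-gated cells (red) and Foxp3-zero T cells (grey) of each thymic lobe, circles for the WT kit and triangles for the Mini kit, with the median as a bar. Lrrc32 and Itgb8 lie wholly above the Foxp3-zero T cells, and Rag1 and Cd8a lower but close to them.

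The IL-2 receptor and STAT5 list had 7 of 18 tested genes higher and none lower, with a median of 0.19, where 3.88% of all genes rose and 3.21% fell. Cish (chr9:107296026-107302784), a STAT5 target that dampens IL-2 signalling, ran from 16.8 to 84.3 CPM (median 34.8) against 3.00 to 4.13, a log2 fold change of 3.28 (SE 0.29, edgeR adjusted p = 1.20e-23). Il2rb (chr15:78479256-78495271), the beta chain shared by the IL-2 and IL-15 receptors, ran from 31.2 to 205 (median 85.9) against 10.2 to 16, with 2.67 (SE 0.18, edgeR adjusted p = 4.53e-37). Smaller rises were seen for Il6ra (1.44), Jak3 (1.04), the IL-7 receptor chain Il7r (0.98), the survival gene Bcl2 (0.74) and the kinase Pim1 (0.66). Cish in gated cells had its highest value in WT lobe 1, as Il2rb did.

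The promoters of 24 genes were searched for the core STAT5 site TTCNNNGAA, a palindrome that reads alike on both strands, from 250 bases before to 50 after the RefSeq start site (GRCm38.p6). These were Foxp3, the genes with the largest thymic rises and the risen genes of the surface and IL-2 lists that have a promoter in that set, and 6 of them held it. They are shown because IL-2 acts on its target genes through STAT5, with the matched letters in capitals and each read 5′ to 3′ on the strand of the gene.
Cish, chr9:107296654-107296683, plus strand: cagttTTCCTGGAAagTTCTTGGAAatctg
Tnfrsf18, chr4:156026213-156026242, plus strand: tgctctacacTTCACAGAAggcctttacaa
Tnfrsf9, chr4:150927853-150927882, plus strand: caacagctgaTTCCAAGAAacccttcagag
Tnfrsf1b, chr4:145247032-145247061, minus strand: agcgcattcaTTCCCGGAAgagatgctgga
Il7r, chr15:9529999-9530028, minus strand: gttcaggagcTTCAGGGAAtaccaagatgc
Foxp3, chrX:7580334-7580363, plus strand: gagctctgttTTCCAAGAAcgggcattagt
Cish alone held 2 matches in this window, at 0 and 11 bases from the start site. For Foxp3 and Tnfrsf9 another start site was searched as well, and its window held no match. The letters occur in 9.55% of all 27025 genes with a promoter, in 8.57% of those tested in the lobes, in 12.4% of the 379 that were higher and in 10.0% of the 300 that were lower. The forkhead letters TGTTTAC, searched on both strands, occur in 4.05%, 3.22%, 3.69% and 7.00% of the same sets. A match of letters is a description and does not show that a factor binds there.

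Among 30 transcription factors of T cells, 8 rose and 5 fell, with a median of 0.06, beside the same 3.88% and 3.21% of all genes. The rises were led by Bhlhe40 (log2 fold change 2.66, SE 0.39), Maf (1.73, SE 0.27), a factor of IL-10 producing T cells, and Rora (1.59, SE 0.13). Irf4, which effector Tregs require, followed with 1.16 (SE 0.29), then Zbtb7b (ThPOK, 0.79), which fixes the CD4 lineage, Foxo1 (0.77) and Bach2 (0.64). Rora ran from 54.8 to 163 CPM in gated cells against 33.8 to 52.7, without overlap. The falls were small, with -0.38 for Bcl6, -0.35 for Satb1, -0.34 for Tcf7 and -0.30 for Myb. Satb1 ran from 4508 to 6106 CPM against 5066 to 7296, so its ranges overlapped although its fall passed the test. The fall of Bcl6 did not pass against depth-matched Foxp3-zero T cells, where it was -0.17.

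The NF-kB and TNF receptor list had 9 of 17 genes higher and none lower, with a median of 0.31, again beside 3.88% and 3.21% of all genes. Rel (c-Rel, chr11:23736847-23770970), the NF-kB subunit that Treg development needs, ran from 64.9 to 208 CPM (median 108) against 43.8 to 63.6, a log2 fold change of 1.18 (SE 0.12, edgeR adjusted p = 1.43e-17). Nfkbiz rose by 0.99, the inhibitor of apoptosis Birc3 by 0.71, the adaptor Traf1 by 0.68, and the subunits Relb and Nfkb1 by 0.64 and 0.63. With gated cells of at least 2 Foxp3 UMIs 5 of the 17 were higher, Traf1 not among them, where 414 of 12257 genes rose. Against depth-matched Foxp3-zero T cells 11 of the 17 were higher, where 4.71% of all genes rose. Of 13 genes induced by the T cell receptor, Myc (0.96, SE 0.25) and Nr4a3 (0.56, SE 0.11) rose and the other 11 did not pass the test. Among the cytokines only 4 of 14 had enough counts, and Fgl2, a secreted suppressor, rose by 2.36 (SE 0.52) from low levels, with some lobes at 0. In the Mini lobes alone it was at -0.34 and did not pass. Il17a and Il21 had no UMI in the thymic gated cells.

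Of the 16 tested genes of trafficking, 8 were higher and 1 lower, where 3.88% of all genes rose and 3.21% fell. Ccr7 (chr11:99144196-99155077) was at 169, 132, 181 and 226 CPM in the gated cells of WT lobes 1 to 4 and at 116, 315, 189 and 337 in the Mini lobes, against 57.7 to 98.5 in Foxp3-zero T cells. All 8 lobes were higher, with a log2 fold change of 1.5 (SE 0.10, edgeR adjusted p = 4.59e-36). Klf2 and its target S1pr1, which lets mature thymocytes leave, rose by 1.67 (SE 0.24) and 1.25 (SE 0.20), although S1pr1 had no UMI in the gated cells of the lowest lobe. Ccr6 rose by 2.78 (SE 0.36), Ccr2 by 1.96 (SE 0.45) and Ccr8 by 1.45 (SE 0.39). In the Mini lobes alone Ccr2 was at -0.53 and did not pass. Ccr9, the receptor of cortical thymocytes for Ccl25, fell by 0.52 on the log2 scale (SE 0.07), from 478 to 609 CPM in Foxp3-zero T cells to 319 to 468 in gated cells.

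Of 12 tested genes of immature thymocytes, 9 were lower and none higher, with a median of -0.47, where 3.21% of all genes fell. Against depth-matched Foxp3-zero T cells 7 of the 12 were lower, with a median of -0.33, and Tdrd5 was not among them. Rag1 (chr2:101638282-101649501) was at 446, 569, 829 and 572 CPM in the gated cells of WT lobes 1 to 4, against 1044, 765, 896 and 746 in the Foxp3-zero T cells. In the Mini lobes it was at 967, 891, 916 and 832 against 1174, 1102, 1121 and 1122. Within each of the 8 lobes it was lower in the gated cells, although the ranges over lobes overlapped, with a log2 fold change of -0.46 (SE 0.06, edgeR adjusted p = 2.69e-11). Dntt, which adds bases at receptor joints, fell by 0.48, Cd8a by 0.53, Cd8b1 by 0.47 and Tdrd5 by 0.60. Relative to Foxp3-zero T cells the levels of Rag1, Dntt and Cd8b1 were 0.726, 0.716 and 0.721. The histone deacetylase Hdac9 rose by 1.95 (SE 0.11) and Hdac7, which acts in double-positive thymocytes, fell by 0.38 (SE 0.06), and they were the 2 of 12 chromatin genes that passed. Of 15 cell cycle genes none passed, with a median of -0.04. With depth-matched Foxp3-zero T cells 4 of the 15 were lower, where 1.82% of all genes fell. With gated cells of at least 2 Foxp3 UMIs 3 of the 15 were lower (Mki67, Top2a and Ccnb1), with a median of -0.65. There 452 of 12257 genes fell and the median over all genes was -0.21.

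Marker lists of other lineages were summed per lobe. Calls among their members stand beside 3.88% of all genes higher and 3.21% lower. The myeloid and dendritic markers summed to 5.26 to 156 CPM per lobe, against 29.9 to 50.9 in Foxp3-zero T cells, and S100a9 was the member called (1.64, SE 0.45), with a median of 0 CPM over the gated cells of the lobes. The NK markers summed to 2.87 to 25.3 CPM, with Ncr1, Klre1 and Klra8 at 0 UMIs. The erythroid markers summed to at most 11.5 CPM, with Hba-a1 and Hba-a2 at 0, and the stromal and epithelial markers to at most 7.21 CPM, with 6 of 8 at 0. The CD8 lineage markers summed to 434 to 873 CPM against 775 to 1115, with 2 of 3 tested lower. The listed B cell genes summed to 3062 to 3938 CPM against 2807 to 3665, and of 10 tested Bach2 rose, while Ralgps2 (-0.24) and Aff3 (-0.20) fell. Neither fall passed against depth-matched Foxp3-zero T cells, with -0.12 and -0.063. The B cell limit bound the gated cells only, so falls of B cell genes may follow in part from the gate in the lobes too. It was exceeded by 3.64% to 6.97% of the Foxp3-zero T cells of a WT lobe and by 0.326% to 0.796% of those of a Mini lobe. A UMI of the myeloid, NK or erythroid lists was present in 28.7% of the thymic and 20.4% of the other gated cells. Without those cells 837 thymic genes were called.

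Other large rises were Gm4956, an annotated pseudogene counted under 2 identifiers (4.76, SE 0.31 for ENSMUSG00000025936, and 4.57, SE 0.23 for ENSMUSG00000121505), whose reads may be split between them. Hopx (4.73, SE 0.38), a homeodomain protein known from induced Tregs, ran from 5.26 to 45.9 CPM against 0.351 to 1.06. Frmd5 (4.12), Gm10406 (4.13) and Gm20275 (3.32) completed the list. Gm20275 lies antisense to Myo9a, and strand use in the counting is not known from the labels or the methods, so reads of the pair may be mixed. The largest falls were all in genes with few UMIs. Trav10, Steap3, Prf1 and Adamtsl1 had no UMI in the thymic gated cells, and taking 3 counts over all lobes as the floor they were at least 2.00-fold, 2.04-fold, 1.85-fold and 1.65-fold lower. Il17re, with 2 UMIs, was at 0.103 of the Foxp3-zero level (95% counting interval 0.0124 to 0.371), and Igha, also with 2, at 0.173 (0.0210 to 0.628). Gm28875, with 1, was at 0.116 (0.00293 to 0.647), and ENSMUSG00000120227, with 3, at 0.194 (0.0399 to 0.567). Cdkl1 (-2.05, SE 0.63) and Kif7 (-1.78, SE 0.51) followed.

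Many of these calls changed with the comparison cells. Against Foxp3-zero T cells with Cd4 and no UMI of Cd8a, Cd8b1, Rag1, Rag2 or Dntt, that is, toward the CD4 single-positive stage, 757 genes were higher and 640 lower of 5633 tested (13.4% and 11.4%). Of the genes higher in the first comparison 310 could be tested here, 65 were still higher and 107 were lower. Of those lower 354 could be tested, 35 were still lower and 182 were higher. Itgb8 (3.32), Itgae (2.18), Hdac9 (2.14), Nrp1 (1.91), Il2rb (1.51), Nt5e (1.45), Pim1 (1.34) and Tnfrsf4 (0.69) remained higher. Of the Treg surface list 5 of 12 tested genes were higher and 2 lower (Cd28 and Cd5), and of the IL-2 list 3 of 16 were higher and 7 lower. Several genes that had risen in the first comparison turned, with log2 fold changes of -1.86 for Zbtb7b, -1.50 for Bach2, -1.17 for Il7r, -1.07 for Bcl2, -0.67 for S1pr1 and -0.40 for Ccr7. None of 16 NF-kB genes was higher and 7 were lower. Of the 10 cell cycle genes tested 8 were higher. Rag1, Dntt and the Cd8 genes chose these comparison cells and are not read.

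The 48 thymic gated cells with no UMI of Rag1, Rag2, Dntt, Cd8a or Cd8b1 were set against Foxp3-zero T cells that also lacked those UMIs. The Foxp3-zero T cells had to hold a Cd4 UMI and the gated cells did not. This comparison was added after the data had been seen. Their median depth was 2950.5 UMIs, and only 2954 genes could be tested. Of these 111 were higher (3.76%) and 90 lower (3.05%). Rora (2.48), Nfkbiz (2.11), Icos (1.77), Birc3 (1.61), Tnfrsf1b (1.57), Rel (1.27) and Ccr7 (1.13) were higher, and Satb1 (-2.0), Lef1 (-1.71) and Tcf7 (-1.27) were lower. Of the NF-kB list 5 of 11 were higher and none lower, of the IL-2 list none of 12 was called, and of the Treg surface list 2 of 5 were higher and 1, Cd28, lower. Satb1 and Tcf7 fell further here than the -0.35 and -0.34 of all thymic gated cells. The difference between these comparisons was not tested.

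In the other samples the gated cells were described over the 13 with at least 20 members, and a gene is called higher or lower where all 13 had the same sign. Of 3882 genes, 132 were higher (3.40%) and 191 lower (4.92%). The largest falls were those of Bcar3, Ciita and Blnk, and falls of B cell genes follow in part from the B cell limit of the gate. Of the Foxp3-zero T cells in a sample, 16.4% to 64.2% exceeded that limit. Against Foxp3-zero T cells within that limit, 106 of 3810 genes were higher (2.78%) and 119 lower (3.12%), and the values below are from this comparison, added after the data had been seen.

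Among genes higher in all 13 samples, the muscle protein gene Neb had the largest median rise, and Itgae followed. Itgae (CD103, chr11:73090583-73147446), which binds E-cadherin on epithelium, ran from 126 to 440.6 CPM (median 255) in the gated cells and from 14.8 to 77.8 (median 29.6) in the Foxp3-zero T cells. Its ranges did not overlap, and the median log2 difference was 2.72, with 0.98 the lowest of the 13 and 3.09 the highest. Nrp1 (neuropilin-1), a surface marker of Tregs of thymic origin, ran from 87.1 to 606 (median 323) against 21.3 to 134 (median 64.3), with a median difference of 2.14 and overlapping ranges. Tnfrsf9 (4-1BB) differed by 1.95, Izumo1r (folate receptor 4) by 1.92, Tnfrsf1b (TNF receptor 2) by 1.74, Icos by 1.45 and the ectoenzyme Entpd1 (CD39) by 1.34. Against all Foxp3-zero T cells Entpd1 differed by 0.50 and was higher in 12 of 13 samples, so its call needs the B cell limit. These were the 7 of 13 listed surface molecules called, with a median of 1.74 over the 13. All 7 had also risen in the thymic lobes against all Foxp3-zero T cells, with 1.14 for Itgae, 0.82 for Nrp1, 1.81 for Tnfrsf9, 1.68 for Izumo1r, 1.00 for Tnfrsf1b, 1.24 for Icos and 1.24 for Entpd1. Against thymic Cd4+ cells without Cd8, Rag or Dntt UMIs only Itgae and Nrp1 of these were called higher, where 12 of the list could be tested. With gated cells also free of those UMIs Tnfrsf1b and Icos were, where 5 could be tested. Itgb8 was higher in 12 of 13 samples (median difference 2.92) and was at 0 in the gated cells of the lowest.

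Further rises were those of the giant muscle proteins Ttn (median difference 2.56) and Neb (2.76), of Dst (2.23), a cytoskeletal linker, of the laminin chain Lamc1 (2.36), of Ston1 (2.27) and of the unconventional myosin Myo1e (2.02). Myo1e turned with the comparison cells: against all Foxp3-zero T cells it was lower in 12 of 13 samples, with a median difference of -0.69. Neb ran from 124 to 2317 CPM against 18.6 to 124. Among the transcription factors Gata3 (1.21), Maf (1.07) and Tox (0.99) were higher in all 13 samples. Runx3 (-1.47), which drives the CD8 lineage, was lower, as were Satb1 (-1.82), Tcf7 (-1.24), Lef1 (-1.08), Ikzf1 (-0.72), Foxp1 (-0.69) and Bach2 (-0.63). The last 6 mark or maintain naive T cells or early lymphocytes. Cd8a ran from 0 to 41.6 CPM in the gated cells against 89.7 to 283, and Cd8b1 from 0 to 32.0 against 89.7 to 192, with differences of -3.24 and -3.28. Pde3b fell by 3.33 on the same scale.

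Of 9 tested trafficking genes none was higher and 2 were lower in these samples, where 2.78% of all genes were higher and 3.12% lower. Ccr7 ran from 26.1 to 131 CPM (median 61.0) against 45.8 to 200 (median 117), a median difference of -0.63. Ccr7 and Bach2 had both been higher in the thymic lobes against all Foxp3-zero T cells, by 1.5 and 0.64, and lower against the thymic Cd4+ cells without Cd8, Rag or Dntt UMIs, at -0.40 and -1.5, so their direction relative to these samples depends on the thymic comparison cells. The IL-2 list had no gene called in either direction, with Il2rb at a median difference of 0.72 and higher in 9 of 13 samples, and Cish, under the level filter of 50 CPM, at 1.22 and higher in 12. Of 14 NF-kB genes 1 was higher, Nfkbia (0.74), and 1 was lower.

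**Figure D5:**
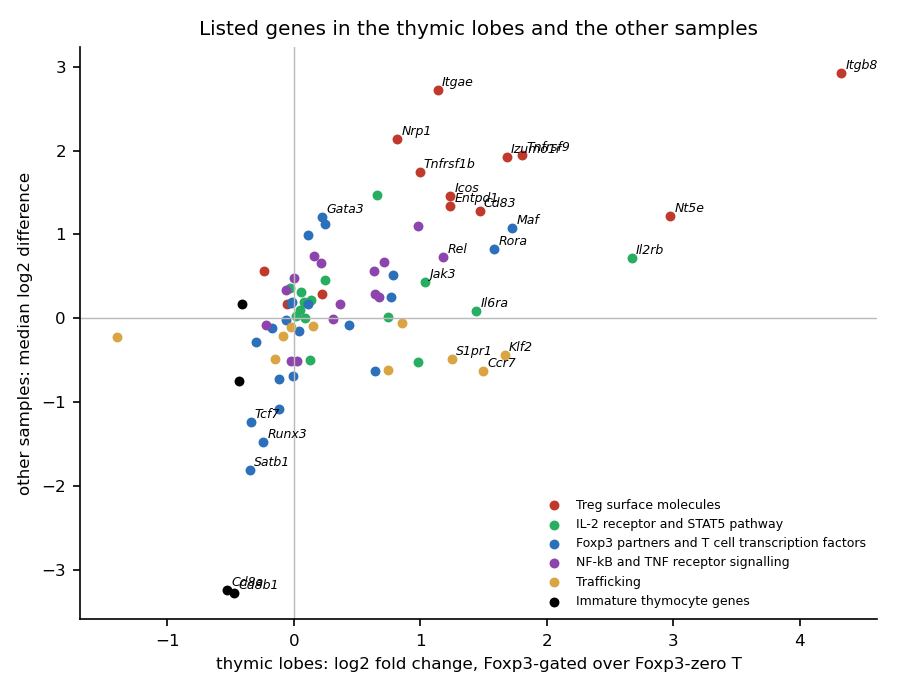
Genes of 6 lists that were tested in both sets, with the thymic log2 fold change of Foxp3-gated over Foxp3-zero T cells on the x axis and the median log2 difference over the 13 other samples, within the B cell limit, on the y axis, coloured by list. Names mark called genes with the larger changes in either set. Itgae, Nrp1 and Tnfrsf9 lie up and right, and Ccr7 lies right but below 0, while against thymic Cd4+ cells without Cd8, Rag or Dntt UMIs its thymic value is -0.40.

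Of the 106 genes higher in the other samples 55 were also higher in the thymic lobes, which is 51.9% of those 106 and 11.2% of the 492 thymic ones. The 492 include genes that were not tested in the other samples. Of the 119 lower ones 27 were lower in the lobes and 20 were higher. Of the 3800 genes tested in both sets, 8.95% were higher and 6.16% lower in the lobes. The lobes and the other samples share no cells, but the same gate chose the cells of both. It asks gated cells and not Foxp3-zero T cells for 2 UMIs of Il2ra, Ctla4, Ikzf2 and Ikzf4. Genes that go with these can therefore rise in both sets, and the overlap is a description only.

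Levels in the gated cells themselves differed between the lobes and the other samples. Of 3965 genes measured in both, 290 were higher in every lobe than in every counted other sample (7.31%) and 172 were lower (4.34%). For Foxp3-zero T cells, taken within the B cell limit in the other samples, these counts were 837 (21.1%) and 602 (15.2%). They rest on sums over many more cells, so their size is not compared with that of the gated cells. Rag1 ran from 446 to 967 CPM in the thymic gated cells and from 0 to 29.2 in the others, Satb1 from 4508 to 6106 against 132 to 952, and Tcf7 from 1319 to 1775 against 87.1 to 418. Itgae ran from 26.2 to 78.3 in the lobes against 126 to 440.6, Izumo1r from 9.61 to 96.4 against 147 to 360, and Tnfrsf1b from 74.5 to 133 against 151 to 459. None of these ranges overlapped. Foxp3-zero T cells were also apart in the same direction for Rag1, Satb1, Tcf7 and Izumo1r, and overlapped for Itgae and Tnfrsf1b. Lrrc32, from 7.21 to 72.3 against 0 to 104, and Gpr83, from 8.60 to 133 against 14.5 to 231, overlapped. Tissue, age and treatment cannot be told apart in this contrast, since the labels do not give them sample by sample.

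The difference between gated and Foxp3-zero T cells differed between kits for 11 of 12666 genes tested (edgeR interaction test, Benjamini-Hochberg adjusted p below 0.05). At an unadjusted p below 0.05 there were 557, not above the share of 0.05 that chance alone would give. The 557 are therefore no evidence of a broad difference between kits. The count of 11 fell to 2 with depth-matched Foxp3-zero T cells and to 2 without WT lobe 2. It was 4 without Mini lobe 1-B, 5 without Mini lobe 2-A and 7 without WT lobe 3. Hdac9 rose by 1.54 in the WT lobes and by 2.41 in the Mini lobes (adjusted p = 0.0157). Cd74, the invariant chain of MHC class II, was at 12, 103, 66.0 and 12.7 CPM in the gated cells of the WT lobes and at 0, 4.57, 0 and 0 in the Mini lobes, against 10.5 to 33.8 in Foxp3-zero T cells (adjusted p = 0.000669). Among the gated cells 21.2% of the WT lobes and 3.92% of the Mini lobes carried the 1 permitted B cell UMI, and their part in the Cd74 difference was not tested. Dscam was at 0 to 16.8 CPM in the WT lobes and at 54.1 to 89.0 in the Mini lobes (adjusted p = 1.26e-06). The lobes of each kit come from other mice, so kit and animal cannot be told apart. Cd74 and Dscam were chosen after their values were seen.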

How the data were processed

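Thymic cells were profiled with the Parse WT and Mini kits, and the labels name spleen too for the WT kit as a whole. The authors deposited UMI counts per gene and cell with a cell table, and the sources used here do not give the version of their counting pipeline or its annotation release. Per the labels, Cell Ranger and the mm10 build belong to the series. The 10x libraries were not analysed here. The gate, the cells compared and the gene lists were chosen with earlier results of these data known.

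Counts were summed per tissue sample and cell class, leaving out the ribosomal RNA genes Rn18s-rs5, mt-Rnr1 and mt-Rnr2. Thymic sums were tested with edgeR 4.0.16 (R 4.3.3; filterByExpr, TMM, quasi-likelihood test). Each SE is an approximation, the absolute log2 fold change divided by the square root of the F statistic of that test. It is therefore not independent of the p-value. The lobe was a block, since both classes come from the same lobe and its cells. DESeq2 1.42.0 was an alternative. For the other samples log2 differences used a pseudocount of 10 CPM and genes with a mean of at least 50 CPM, with no test. No doublet caller was run, and the limits on UMIs and B cell genes do not remove pairs of thymocytes. The study's text reports doublet calls in both kits, which were not used here. Depth-matched cells and cells thinned to 1000 UMIs were drawn with a fixed seed. Positions are GENCODE M21 (GRCm38), which held 91.3% of the gene identifiers. Promoters are RefSeq, GRCm38.p6.

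Named genes are the gate genes, the 10 largest rises and falls with the same sign in all samples, and called genes or up to 4 examples of each list, largest change first. A few genes that this rule names are not reported here. Tested on simulated thymic counts (12721 genes), the edgeR step recovered 45% of 2-fold and 89% of 4-fold changes, with 9 false among 143 calls. The simulated counts were drawn independently around a common profile with a fixed spread and no effect of lobe or mouse. The false calls therefore do not cover lobes that share animals. Alternatives left out each sample, changed the gate, the comparison cells, the filter or the scaling.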

Additional observations from a re-analysis of the deposited data

Results flagged for a closer look

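In groups of 4 to 10 samples, the highest or lowest value was set against the others by Dixon's test at the 95% level, which chance alone passes in about 1 of 20 groups. Of 136 groups, 16 passed. WT lobe 1 accounted for several: 52.6% of its gated cells with a UMI of Rag1, Rag2 or Dntt and 47.4% with Cd8a or Cd8b1 (both lowest), and in its gated cells 84.3 CPM of Cish, 133 of Gpr83, 169 of Nt5e and 205 of Il2rb (all highest). Its Foxp3-zero T cells were highest for Rora (52.7 CPM), Nfkb1 (248) and Bach2 (818). The lobe holds 19 gated cells. Mini lobe 2-A was highest in gated cells for Tnfrsf18 (62.8 CPM) and Ccr6 (57.6), and in Foxp3-zero T cells for Trav10 (5.46). Mini lobe 2-B was highest in gated cells for Traf1 (79.0) and Myc (62.4), and lowest in Foxp3-zero T cells for Gm10406 (0.162). WT lobe 2 had the only UMI of Gm28875 (2.40 CPM).

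The 11 genes whose thymic difference between gated and Foxp3-zero T cells differed between kits in the interaction test of edgeR were, as log2 Mini minus WT, Dscam (3.33), Ryr2 (3.17), Slit3 (1.65), Hdac9 (0.86), Atp8b4 (-1.44), Neb (-1.63), Wdfy4 (-2.27), Slc8a1 (-3.65), H2-Ab1 (-4.15), Cd74 (-4.65) and H2-Eb1 (-10.66). The last value rests on 0 UMIs in the Mini lobes and depends on the prior count. Slit3, Atp8b4, Wdfy4 and Slc8a1 were named after their values were seen, as were Dscam, Ryr2, Cd74 and the H2 genes.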

How the results depend on the processing

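The thymic count (898 genes, 492 higher and 406 lower) ran from 751 to 889 when each lobe was left out, with 413 to 465 higher and 338 to 433 lower. Without the lobe as a block, a pairing that the design gives, it was 682 (422 higher, 260 lower). The lower genes were 214 with DESeq2 size factors, 142 by the DESeq2 test and 177 with depth-matched cells. The WT lobes alone gave 492 (324 and 168) and the Mini lobes alone 474 (294 and 180). Against Cd4+ cells without Cd8, Rag or Dntt UMIs it was 1397 (757 and 640). With gated cells also free of Cd8, Rag and Dntt UMIs, but not required to hold Cd4, it was 201 (111 and 90), where fewer genes could be tested. Reversed against the Cd4+ cells were Il6ra (-0.80), Jak3 (-0.12), Il7r (-1.17), Bcl2 (-1.07), Zbtb7b (-1.86), Foxo1 (-0.042), Birc3 (-0.24), Traf1 (-0.11), Relb (-0.82), Nfkb1 (-0.47), Nr4a3 (-0.80), Klf2 (-0.24), Ccr7 (-0.40), S1pr1 (-0.67), Bach2 (-1.50), Bcl6 (0.60), Tcf7 (0.14), Myb (1.17), Tdrd5 (1.52), Hdac7 (0.60) and Aff3 (0.39). With members also free of those UMIs, Bcl2 (-0.30), Zbtb7b (-0.77) and Bach2 (-0.76) reversed, and in the Mini lobes alone Fgl2 (-0.34) and Ccr2 (-0.53). Of 1388 values of the 65 named genes under alternatives, 1196 kept direction and call and 166 kept direction only. The kit difference (11 genes) was 2 with depth-matched cells and ran from 2 (without WT lobe 2) to 15 (without WT lobe 1). It was 4 without Mini lobe 1-B, 5 without Mini lobe 2-A and 7 without WT lobe 3. In the other samples the higher genes (132) were 339 with at least 2 Foxp3 UMIs and 250 with members that met the T cell rule, and ran from 134 to 196 with each sample left out. The lower genes (191) were 364 with at least 2 Foxp3 UMIs, 119 within the B cell limit and 124 over 100 CPM, and ran from 190 to 221. Only samples with at least 20 members under a setting counted. With at least 2 Foxp3 UMIs these were CVS_C_3, CVS_C_5 and YD_C_1 to 5. Under the T cell rule CVS_C_2, CVS_C_4 and CVS_S_4 dropped out. The same sign in all samples is easier to reach over fewer samples, so these counts are not like the first ones. The median thymic share (0.544% of T cells) was 0.167% with at least 2 Foxp3 UMIs, 0.492% with a partner sum of at least 3 and 0.112% after thinning. In the other samples (3.5%) it was 1.42% with at least 2 Foxp3 UMIs. The cause of these moves was not tested. Few UMIs per lobe (166000 to 631578 in gated cells) limit what can be seen for genes at low levels.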
